A study of Mus musculus with 19 samples.

Results

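A set of 7 genes of the red blood cell lineage was followed through 19 mouse lymphomas: Epor, Gata1, Klf1, Alas2, Slc4a1, Ermap and Car2, out of the 21086 genes in the expression table. They were chosen by name, with their high values in 1 tumour, the late-onset wild-type tumour WT_late_1, in view, so their levels there are a description and were not tested. That choice fits some of them better than others: WT_late_1 was the highest of the 19 tumours for 4 of the 7 (Slc4a1, Ermap, Klf1 and Gata1), ranked 2 of 19 for Alas2 and 4 of 19 for Car2, and ranked 11 of 19 for Epor. All mice carried Eµ-Myc (written Em-Myc in the labels), a transgene that expresses the oncogene Myc in B cells from an immunoglobulin heavy chain enhancer. They were either wild type for Bptf, which encodes a subunit of the chromatin remodeller NURF (genotype Bptf+/+, "WT"), or carried 1 deleted Bptf allele (heterozygous, "HET"). Tumours were taken when the mice showed signs of disease and were classed by onset, giving 6 WT early tumours (9 to 17 weeks), 5 WT late tumours (28 to 76 weeks), 4 HET early tumours (8 to 13 weeks) and 4 HET late tumours (30 to 66 weeks). The sources used here give neither the extent of the deletion nor the strain of the mice or the site of each lymphoma.

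Red blood cells arise in bone marrow and, in mice, also in the spleen. Erythropoietin, acting through its receptor, keeps erythroid progenitors alive, while the transcription factors GATA1 and KLF1 switch on the genes for globin, haem synthesis and the red cell membrane. Bulk RNA of a lymphoma holds the RNA of every cell in the sample, and in such RNA fewer cells of a type and less RNA per cell cannot be told apart.

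RefSeq promoters (GRCm38.p6, 250 bases before to 50 after the start site) were matched for 5 of the 7 genes: Alas2, Klf1, Gata1, Epor and Ermap. The promoters printed here are 4 of these, chosen to set the motifs that erythroid factors are known to bind beside genes that were high in WT_late_1 (Klf1, Ermap), a gene that followed the globins (Alas2) and a gene that was not high there (Epor). Each sequence runs 5′ to 3′ on the strand of its gene, and capitals mark the GATA motif (AGATAA or TGATAA, seen as TTATCT or TTATCA when it lies on the other strand) and the CACCC motif (GGGTG on the other strand). No match of one motif overlapped a match of the other.
Alas2: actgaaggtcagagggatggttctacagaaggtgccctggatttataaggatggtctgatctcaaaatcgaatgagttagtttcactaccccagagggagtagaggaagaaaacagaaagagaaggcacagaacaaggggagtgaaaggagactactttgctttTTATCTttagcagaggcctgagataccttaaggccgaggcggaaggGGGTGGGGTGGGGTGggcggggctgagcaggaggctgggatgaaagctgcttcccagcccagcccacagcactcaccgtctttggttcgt
Klf1: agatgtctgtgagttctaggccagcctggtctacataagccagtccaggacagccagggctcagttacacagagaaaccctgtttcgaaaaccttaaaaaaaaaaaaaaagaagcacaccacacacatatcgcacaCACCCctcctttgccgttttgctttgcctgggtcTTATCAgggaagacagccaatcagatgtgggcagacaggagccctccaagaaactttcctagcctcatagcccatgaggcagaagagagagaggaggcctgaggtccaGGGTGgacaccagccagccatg
Epor: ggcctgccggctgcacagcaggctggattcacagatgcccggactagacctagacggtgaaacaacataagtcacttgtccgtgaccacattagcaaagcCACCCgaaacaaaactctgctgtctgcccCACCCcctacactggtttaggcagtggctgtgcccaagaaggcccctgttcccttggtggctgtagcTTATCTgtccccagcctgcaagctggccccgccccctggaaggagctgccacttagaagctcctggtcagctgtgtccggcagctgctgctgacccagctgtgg
Ermap: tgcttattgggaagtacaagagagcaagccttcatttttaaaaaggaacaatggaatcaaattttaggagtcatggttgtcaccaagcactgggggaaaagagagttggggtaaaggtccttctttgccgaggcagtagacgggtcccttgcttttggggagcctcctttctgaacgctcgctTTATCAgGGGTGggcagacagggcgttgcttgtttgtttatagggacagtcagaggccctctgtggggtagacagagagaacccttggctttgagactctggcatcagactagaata
These lie at chrX:150547167-150547466 (plus strand), chr8:84901732-84902031 (plus), chr9:21963527-21963826 (minus) and chr4:119189946-119190245 (minus). A GATA motif was present in 4 of the 5 promoters and a CACCC motif in 5 of 5, against 18.61% and 57.52% of 32851 mouse promoters of the same length. The first base of the GATA motif stood at -86 from the start site in Alas2, at -80 in Klf1, at -67 in Ermap and at -54 in Epor. The Gata1 window (chrX:7967861-7968160, minus strand) held CACCC at -74 and -52 and no GATA motif, and it lies at a start inside the annotated gene, not at its outer end. Epor, whose promoter has the same motifs, was not high in the tumour in which Klf1 and Ermap were highest. A match of letters is a description and not evidence of a bound site.

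The values below are normalised counts, meaning reads per gene divided by 1 scaling factor per library. Whole reads were recovered from them, at 8297856 to 12497732 reads per library. A count of 0 allows up to 3 reads, or 2.24 to 4.52 normalised counts depending on the library. Bptf itself lay between 407.6 and 1573.3 in the 8 HET tumours and between 1664.7 and 2585.7 in the 11 WT tumours, without overlap. A pair of libraries stood apart in their cell type markers. HET_early_2 had 9 of 9 osteoclast markers at their highest (Ctsk 24537 against 30.4 to 548.3 in the tumours other than it and WT_late_1) and 12 of 14 megakaryocyte and platelet markers, with a summed B cell marker level of 1503 against 18737 to 59219 in those 17 tumours. WT_late_1 was also low in part of the B cell list (Pou2af1 4.61 and Cd79a 103.3, while Cd22 was 2415 and Blnk 1997), with a summed level of 14800, and had high Cd4 (5375) and Siglecf (550.4). Cd4 did not stand for its list, of whose sum of 8815 it made the larger part. In WT_late_1 the T cell list was split. Of 15 markers, 9 lay below the median of the other 18 tumours, with a median log2 difference of -0.61. More than 1 log2 unit from that median were 5 markers above it and 4 below. Of the 18303 genes that reached a value of 5 in some tumour, 9088 lay above their median in WT_late_1. Many of the results that rest on either tumour are given with and without it.

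Epor, the receptor through which erythropoietin acts (ENSMUSG00000006235, chromosome 9, 21958897 to 21963506, GRCm38), was detected in every tumour. It ran from 10.8 through a median of 16.1 to 24.8 in the WT early tumours. The WT late tumours had 15.7, 11.2, 12.0, 10.9 and 21.2, in the order WT_late_1 to WT_late_5. The HET early tumours had 10.2, 21.3, 13.9 and 26.9, and the HET late tumours 22.7, 31.7, 8.65 and 48.2. The 4 groups overlapped, the HET late tumours spanned both the lowest and the highest value of all 19, and WT_late_1 sat next to the median of the others (16.1).

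Gata1, the master transcription factor of the erythroid and megakaryocyte lineages (ENSMUSG00000031162, chromosome X, 7959260 to 7978071), was at the edge of detection. It had 0 reads in 11 of the 19 tumours and at most 3 reads in any tumour but WT_late_1, where 9 reads gave 8.30 (95% exact Poisson interval 3.79 to 15.8, which covers counting error only). The other WT late tumours were all at 0, and the WT early tumours ran from 0 to 1.495 with 4 of 6 at 0. HET early tumours had 1.86, 0, 2.45 and 0, and HET late tumours 2.61, 1.44, 0 and 1.51. Klf1, the erythroid Krüppel-like factor that activates adult β-globin (ENSMUSG00000054191, chromosome 8, 84901928 to 84905291), was also low. It reached 12.0 in WT_late_1 from 13 reads (6.38 to 20.5). The other WT late tumours had 4.08, 2.41, 6.04 and 2.35, and the WT early tumours ran from 0.75 through 1.38 to 3.41. HET early tumours had 2.79, 2.66, 0.82 and 0, and HET late tumours 0.87, 1.44, 3.93 and 3.01. The lower bound of WT_late_1 lies just above the value of WT_late_4, which itself rests on 5 reads, so these tumours are not clearly separated at this depth.

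Alas2, the erythroid enzyme of the first step of haem synthesis (ENSMUSG00000025270, chromosome X, 150547375 to 150570638), was found in all 19 tumours and its highest value was in HET_early_2, not WT_late_1. HET early tumours had 27.0, 450.6, 40.0 and 24.4, and HET late tumours 53.1, 15.8, 10.2 and 30.1. WT early tumours ran from 7.47 through 25.2 to 83.5. WT late tumours had 147.5, 10.2, 8.43, 20.5 and 60.0. The 4 groups overlapped, and outside HET_early_2 and WT_late_1 no tumour exceeded 83.5. The annotated gene overlaps Apex2 on the opposite strand and the strand setting of the counting is not stated, so reads of the 2 genes might be mixed. Apex2 itself ranged only from 87.3 to 158.9 and was 151.5 in HET_early_2 and 128.2 in WT_late_1.

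Slc4a1, which encodes band 3, the anion exchanger and main membrane anchor of red cells (ENSMUSG00000006574, chromosome 11, 102348824 to 102366203), set WT_late_1 apart most. The WT late tumours had 210.2, 0, 1.20, 0 and 0. The WT early tumours ran from 0 through 1.44 to 27.6 (WT_early_5). HET early tumours had 0.93, 30.6, 11.4 and 5.89, and HET late tumours 1.74, 2.88, 0 and 3.01. The normalised count of WT_late_1, from 228 reads, was 6.88 times that of the next tumour, HET_early_2, although HET_early_2 had more Alas2. Ermap, an erythroid membrane protein that carries the Scianna blood group (ENSMUSG00000028644, chromosome 4, 119175457 to 119190011), was 52.6 in WT_late_1, 2.24 times the next tumour, WT_late_2 (23.4). The remaining WT late tumours had 3.61, 8.46 and 1.18, and WT early tumours ran from 3.93 through 9.92 to 16.9. HET early tumours had 14.9, 19.9, 7.35 and 4.21, and HET late tumours 12.2, 7.20, 7.08 and 15.1. Apart from WT_late_1, the groups overlapped.

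Car2, carbonic anhydrase II (ENSMUSG00000027562, chromosome 3, 14886273 to 14900770), is an abundant red cell enzyme that other cells make too, osteoclasts among them. It followed a pattern of its own. HET early tumours had 509.4, 884.0, 10.6 and 364.5, and HET late tumours only 5.23, 7.20, 12.6 and 16.6. WT early tumours ran from 9.57 through 36.1 to 127.2, and WT late tumours had 158.6, 23.4, 85.5, 15.7 and 11.8. So 3 of 4 HET early tumours exceeded every other tumour, while HET_early_3 lay within the HET late range. Per kilobase of exon, the order of levels in WT_late_1 was Car2 65.5, Alas2 61.4, Slc4a1 43.0, Ermap 9.92, Epor 7.88, Klf1 7.83 and Gata1 3.40, where the closest neighbours do not differ beyond counting error.

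**Figure D1:**
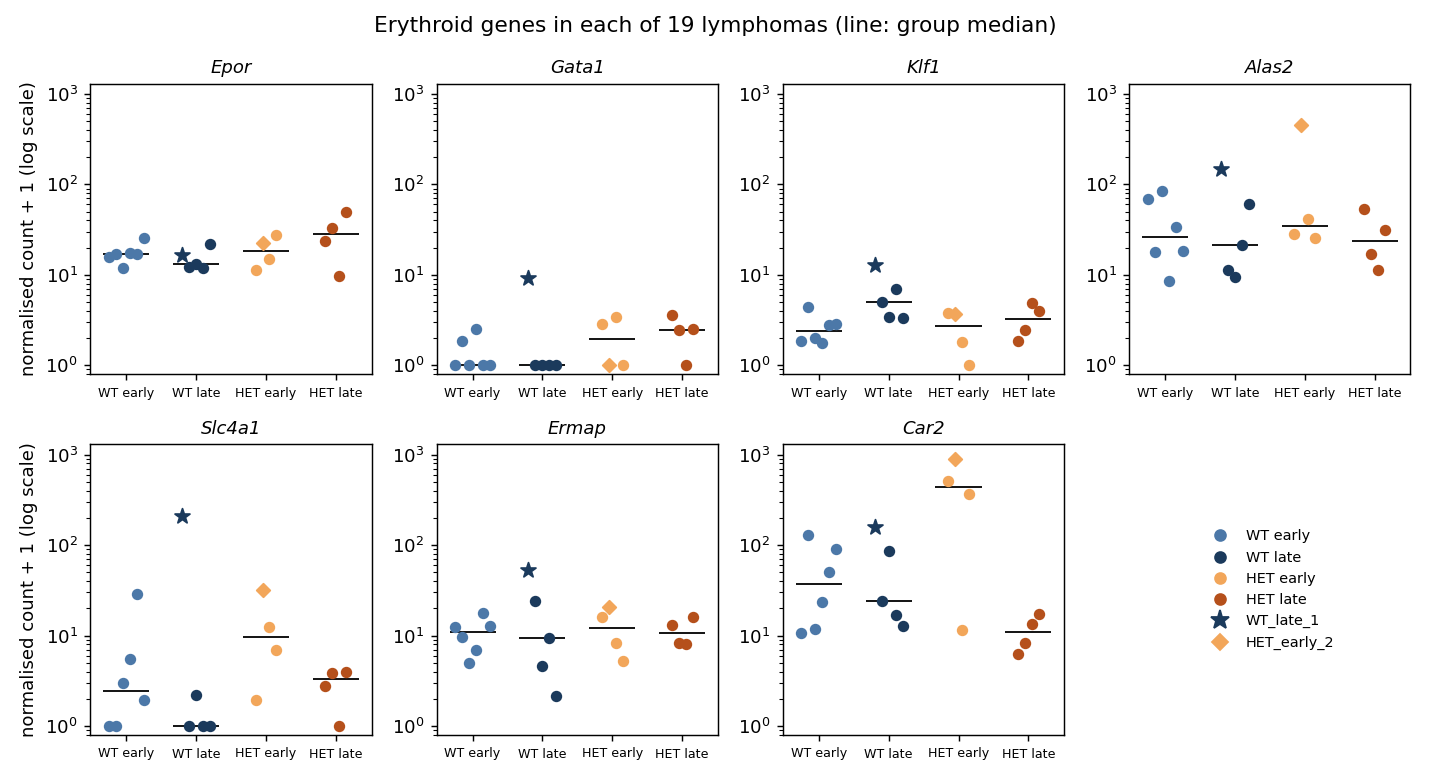
Normalised count plus 1 (log scale) of each of the 7 genes in the 19 tumours, by group, with the group median as a line. The star, WT_late_1, is the highest point for Slc4a1 (210.2), Ermap (52.6), Klf1 (12.0) and Gata1 (8.30), while the diamond, HET_early_2, is the highest for Alas2 (450.6) and Car2 (884.0).

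Genes of 8 erythroid lists that are not among the 7 were described in the same way, as WT_late_1 against the median of the other 18 tumours. Of 80 such genes that reached a value of 5 in some tumour, 14 were highest in WT_late_1, or 17.5%, against a background of 5.09% of all 18303 genes. Some of these, such as Kel, reached 5 only through WT_late_1 and so had to be highest there. Among the 77 that reached 5 in the other 18 tumours, 11 were highest in WT_late_1 (14.3%, all genes 4.77%). In HET_early_2 22 of the 80 were highest, which is 27.5% against 27.2% of all genes, a share near the background. Without HET_early_2, 5 of the 7 genes were highest in WT_late_1, the background then being 7.8%. In WT_late_1, 30 of the 80 (37.5%) lay more than 1 log2 unit above that median, as did 6 of the 7 genes (all but Epor), where 14.3% of all genes did. In HET_early_2 it was 4 of the 7 (Alas2, Slc4a1, Ermap and Car2) against 34.2% of all genes. In WT_late_1 such a share was not particular to the erythroid lists. It was above 14.3% in every list of another cell type except the B cell list (6.67%). Neutrophil and myeloid precursor markers had 61.5%, osteoclast markers without Car2 37.5% and T cell markers 33.3%. These figures describe 2 tumours and were not tested. The 7 genes were chosen with their high values in WT_late_1 in view, so their counts there carry no weight as support. The gene lists were chosen with earlier results of these data known, so the shares of the 80 genes are not independent support either. Gata1 reached 5 only through WT_late_1 (at most 2.61 elsewhere). The 30 of 80 also keep genes such as Kel that reached 5 only there.

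With the 7 genes left out, the globins had the highest median difference among the 8 lists in WT_late_1, at 2.48. The red cell membrane list followed, with 11 of 19 genes more than 1 log2 unit above the median and a median difference of 1.97, against 0 for all genes. Kel, of the Kell blood group, had 17.5 in WT_late_1 and at most 2.66 in any other tumour. Ank1, the ankyrin that ties the membrane to its skeleton, had 38.7 in WT_late_1 but 394.8 in HET_early_2. Of the 19, 4 lay below the median, by little for Aqp1 (-0.06) and by much for Xk, at 21.2 in WT_late_1, where 17 tumours had 31.7 to 504.2. Among the 12 transcription factors and cofactors 7 were more than 1 log2 unit above and the median difference was 1.43. Sox6 had 22.1 in WT_late_1 but 1062 in HET_early_2 and 116.4 in HET_late_3, and Cbfa2t3 had 1267 against 1261 in HET_late_1. Zfpm1, the GATA1 cofactor FOG1, had 225.9 where 17 tumours had 31.6 to 1899 and a median of 963.8. The terminal maturation list (9 genes) had a median of 0.44, with Hemgn, an erythroid nuclear protein, at 41.5 and at most 9.17 elsewhere, and Ube2l6 below the median (-0.29). The red cell enzymes without Car2 (7 genes) had a median of 0.22, with Car1, another carbonic anhydrase, at 24.0 and at most 10.9 elsewhere, and Blvrb below the median (-0.57).

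The other haem synthesis enzymes did not share the level of Alas2 (2.48). The 8 of them had a median difference of 0.16 in WT_late_1, none above 1, with Alad at 0.68, Cpox at 0.61 and Ppox at -0.35. Iron uptake genes (10) had a median of -0.14, and Tfrc, the transferrin receptor, was lower by 1.20. Erythropoietin signalling without Epor (10) had a median of 0.39, with Pim1 (1.86) and Jak2 (1.48) higher and Socs2 lower (-1.72). Globins were detected in every tumour. Their list had a median of 2.48 in WT_late_1 and 3.998 in HET_early_2, and Hbb-bs, adult β-globin, was 2044 and 7224 in these tumours against 127.7 to 1184 in the other 17. Embryonic Hbb-bh1 had 0 reads in both.

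**Figure D2:**
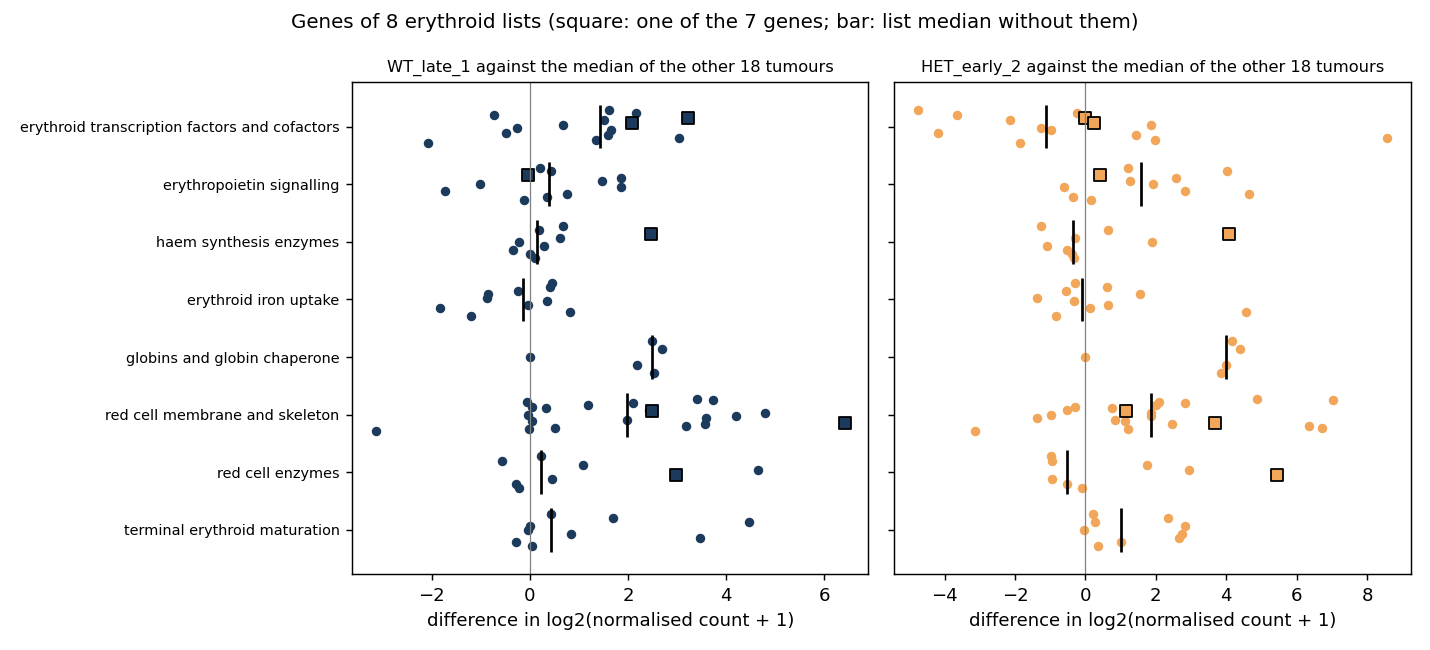
Difference in log2(normalised count + 1) of WT_late_1 (left) and of HET_early_2 (right) from the median of the other 18 tumours, for each gene of 8 erythroid lists, with squares for the 7 genes and a bar for the list's median without them. In WT_late_1 the membrane list (1.97) and the globins (2.48) lie to the right while haem synthesis (0.16) and iron uptake (-0.14) lie near 0, and in HET_early_2 the globins lie at 3.998.

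Markers of other cell types in the same tumours were as follows. In WT_late_1 the megakaryocyte and platelet list, whose lineage shares Gata1, summed to 520.9, within the 166.1 to 857.2 of the 17 tumours other than HET_early_2. The mast cell, basophil and eosinophil list summed to 690.6 (14.5 to 1643), of which Siglecf made 550.4, while Cpa3 (17.5, other 17 tumours up to 27.8) and Ms4a2 (1.84, up to 3.01) lay within the range of the others. Neutrophil and myeloid precursor markers summed to 2274 (132.5 to 3878). By the measure used for the erythroid lists, 8 of these 13 markers were more than 1 log2 unit above the median and their median difference was 1.16. The megakaryocyte list had a median of 0.62, the B cell list -1.34 and the T cell list -0.61. Also more than 1 log2 unit above the median were 4 of 14 megakaryocyte, 3 of 8 osteoclast (without Car2) and 5 of 15 T cell markers. The counts were 3 of 12 for haematopoietic progenitor, 3 of 13 for red pulp macrophage, 2 of 12 for mast cell and 1 of 15 for B cell markers. Red pulp macrophage markers summed to 13716 (5982 to 30496). In HET_early_2 the megakaryocyte list summed to 4530 and the osteoclast list to 167704. The part of these cells in the levels of the 7 genes was not tested.

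The next question was whether the 7 genes vary together in the 18 tumours that did not choose them. Among the 21 pairs, 0 passed by Pearson's r (permutation, Benjamini-Hochberg over the 21) and 0 by Spearman's rho. Coefficients r ran from -0.41 (Klf1 with Slc4a1) to 0.43 (Alas2 with Slc4a1), with a median of 0.15, and 15 of 21 were positive. For Alas2 with Slc4a1, r was 0.43 (rho 0.25, permutation p = 0.0756 and 0.311, adjusted p = 0.717 and 0.657), and it was 0.11 without HET_early_2 and WT_early_3, the tumours farthest from the median. For Klf1 with Slc4a1, r was -0.41 and rho -0.53 (permutation p = 0.0946 and 0.024, adjusted p = 0.717 and 0.504), and r was -0.30 without HET_early_4 and WT_late_4. At pairs of genes with values as low as those of Gata1 and Klf1 the depth limits what can be seen.

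Alas2 had a partner outside the 7 genes. Over the 18 tumours its level followed the sum of the adult globins Hba-a1, Hba-a2, Hbb-bs and Hbb-bt, with r = 0.93 and rho = 0.84 (permutation p = 1e-05, the smallest 100000 resamples can give, and 2e-05, adjusted over 7 genes to 7e-05 and 0.00014). This relation was examined after the values had been seen. The sum ran from 221.3 (WT_early_4) to 12128 (HET_early_2), so the relation was computed again without HET_early_2, where r was 0.86 and rho 0.81 (permutation p = 3e-05 and 0.00024, adjusted p = 0.00021 and 0.00168), and without HET_early_2 and WT_early_4, where r was 0.83. Within the 10 WT tumours r was 0.98 and rho 0.96 (permutation p = 4e-05 and 8e-05, adjusted p = 0.00028 and 0.00056). Within the 8 HET tumours r was 0.89 (exact permutation p = 0.0156, adjusted p = 0.0987, rho 0.60, p = 0.132, adjusted p = 0.353). It was 0.02 without HET_early_2 and HET_late_3, a set that still holds HET_late_2. With so few tumours, r within HET depends on which are kept. The tumour off the line was HET_late_2, with 15.8 of Alas2 at 1700 of globin. Without it r over 17 tumours was 0.98, and 0.96 when HET_early_2 and WT_early_4 were left out too. HET_late_2 was picked for lying off the line, so the higher r without it carries no weight as support. WT_late_1 had 147.5 of Alas2 at 3680 of globin.

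None of the other 6 genes passed against the globins in the 18 tumours. Slc4a1 had r = 0.46 and rho = 0.33 (permutation p = 0.0572 and 0.182, adjusted p = 0.2 and 0.319), and r was 0.26 without HET_early_2 and WT_early_4. Epor had 0.38, Ermap 0.14, Car2 0.06, Gata1 -0.04 and Klf1 -0.19, with adjusted p from 0.283 to 0.876. WT_early_5 showed the difference between Alas2 and Slc4a1: its Slc4a1 (27.6) was close to that of HET_early_2 (30.6), while its globin sum was 849.2 against 12128. Without HET_early_2, Car2 ran against the globins (r = -0.49, rho = -0.60, permutation p = 0.0463 and 0.0122, adjusted p = 0.162 and 0.0426), passing by rho only.

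**Figure D3:**
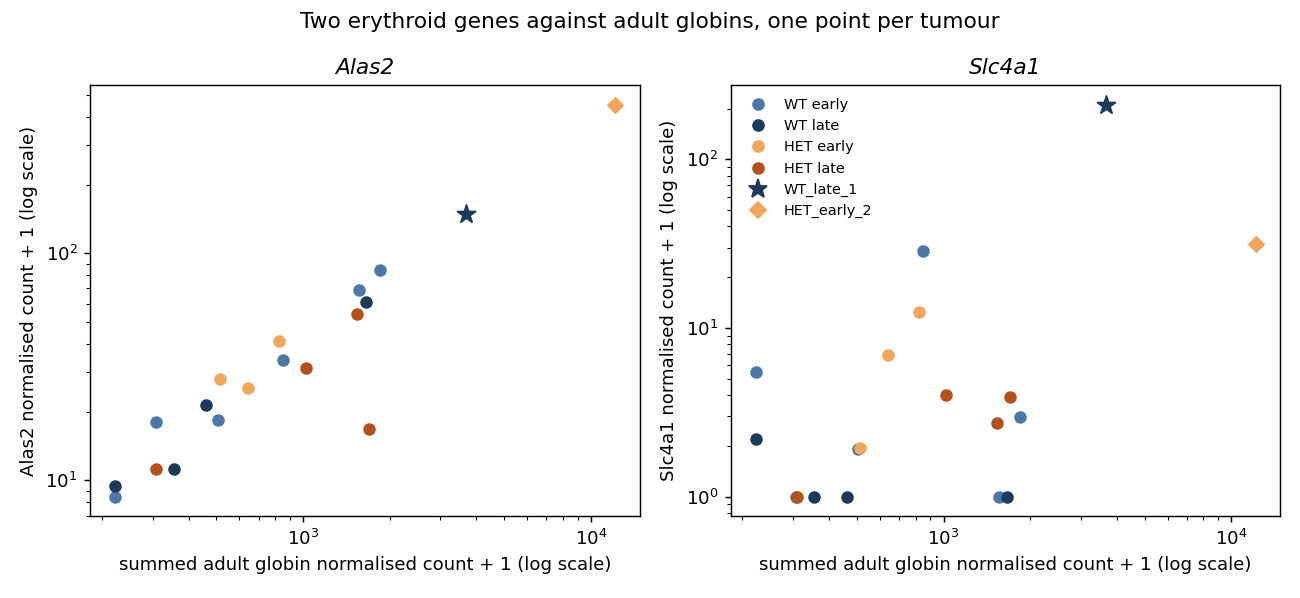
Alas2 (left) and Slc4a1 (right) against the summed adult globins, as normalised count plus 1 on log axes, 1 point per tumour. Alas2 lies along a line from 7.47 to 450.6, with HET_late_2 (15.8) below it, while Slc4a1 is spread, with WT_late_1 (210.2) above all other tumours.

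The genes most like each member were ranked among 13718 genes with a mean of at least 10, as a description. For Alas2, the 4 adult globins were the first 4 by Pearson's r over all 19 tumours (0.92 to 0.94) and by Spearman's rho over the other 18 (0.81 to 0.86). For Car2 the first by rho over 18 tumours was Mmp9 (0.88), a protease abundant in osteoclasts and neutrophils, and the first by r over 19 was Tal1 (0.84), an erythroid and stem cell transcription factor. For Gata1, Slc4a1, Klf1, Ermap and Epor the 5 nearest genes by either measure held none of the globins. Against the mean z score of all 7 genes, the first 10 by r over 19 tumours were Nos1 (0.84), Pea15a, Tbc1d9, Ncam1, Arhgap6, Cbarp, Piwil2, Cpd, Gramd1b and Anxa4 (0.80), none of them a listed erythroid gene. By rho over 18 tumours the first 10 included Slc8a3 (0.85), Arhgap6, Cast, Slit2, C1qtnf1, Reck, Cacna1g, Ak1 and Cyp1b1 (0.81), all of these but Arhgap6 with their highest value in HET_early_2. Nos1 had 117.1 in WT_late_1 and 122.3 in HET_early_2 and at most 20.04 elsewhere. These coefficients share the same few extreme tumours.

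The study's comparisons were then read for the 7 genes, in a limma fit of all genes over the 18 tumours, on log2(normalised count + 1), with Benjamini-Hochberg adjustment over the 19804 genes that passed the filter, among them all 7. Between HET and WT tumours, averaged over onset, 0 of the 7 passed, with a background of 0.0% of all genes called. Before adjustment 2483 genes had p under 0.05, and Gata1 was the only one of the 7 among them. On the recovered reads edgeR called 0 genes and DESeq2 370, none of them among the 5 of these genes to which it gave an adjusted p (all but Gata1 and Klf1). The estimates (HET minus WT) were 1.26 for Slc4a1 (SE 0.64, adjusted p = 0.411), 0.79 for Gata1 (SE 0.33, adjusted p = 0.377), 0.68 for Alas2 (SE 0.62), 0.65 for Car2 (SE 0.75), 0.43 for Epor (SE 0.35), 0.40 for Ermap (SE 0.47) and -0.34 for Klf1 (SE 0.34). Gata1's difference rests on at most 3 reads in a tumour. Without HET_early_2 the estimate was 0.20 for Alas2, 0.95 for Slc4a1 and 0.30 for Car2, while without HET_early_3 that for Car2 was 1.34 (adjusted p = 0.307). With WT_late_1 in the fit it was 0.52 for Slc4a1, 0.47 for Gata1, 0.39 for Alas2, 0.38 for Car2 and 0.10 for Ermap.

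Between late and early tumours, averaged over genotype, 0 of the 7 passed as well, with 0.0% of all genes called. Before adjustment 3313 genes had p under 0.05, Car2 and Slc4a1 among them. The estimates (late minus early) were -2.37 for Car2 (SE 0.75, adjusted p = 0.145), -1.54 for Slc4a1 (SE 0.64, adjusted p = 0.241), -0.96 for Alas2 (SE 0.62, -0.47 without HET_early_2), 0.66 for Klf1 (SE 0.34), -0.26 for Ermap (SE 0.47), 0.10 for Epor (SE 0.35) and -0.04 for Gata1 (SE 0.33). The call depends on the test: DESeq2 on the recovered reads called Car2 (-3.00, adjusted p = 0.00059) and Slc4a1 (-3.39, adjusted p = 0.0428) beside 7.35% of all genes, while edgeR gave Car2 an adjusted p of 0.0731. WT_late_1 bears on Slc4a1, whose difference was -0.80 (adjusted p = 0.672) with that tumour in the fit. Without HET_early_2 the limma difference was -1.23 for Slc4a1 (adjusted p = 0.296) and -2.02 for Car2 (adjusted p = 0.167). DESeq2 and edgeR were not run without HET_early_2. In the erythroid lists, the 7 genes left out, 0 of 79 genes passed for onset (median -0.12, all genes -0.08) or for genotype (median 0.21, all genes 0.07). Without HET_early_2 the onset median changed sign, to 0.065 (all genes -0.059), and the genotype median was 0.147 (all genes 0.042). Of the 76 genes then tested, 0 passed in either comparison.

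Onset within the HET tumours was added after the values had been seen, because the authors' deposited table calls Car2 there. In that table, whose sign is late relative to early, Car2 had a log2 fold change of -5.81 with an adjusted p of 6.81e-19. In the limma fit the difference was -4.32 (SE 1.11, adjusted p = 0.0763) and did not pass, where 0.263% of all genes did. It passed by DESeq2 (-5.41, adjusted p = 9.89e-06), with 9.54% of all genes called, and not by edgeR (-5.33, adjusted p = 0.0514). Left out in turn, the 18 tumours gave -5.71 to -3.62 with adjusted p from 0.0252 to 0.227, and the difference passed without HET_early_3, the HET early tumour at 10.6. Without HET_early_2 it was -3.62 (adjusted p = 0.115). None of the other 6 genes passed in this comparison by any of the 3 tests (DESeq2 gave none for Gata1 and Klf1), Slc4a1 being at -1.73 (SE 0.95, adjusted p = 0.317).

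**Figure D4:**
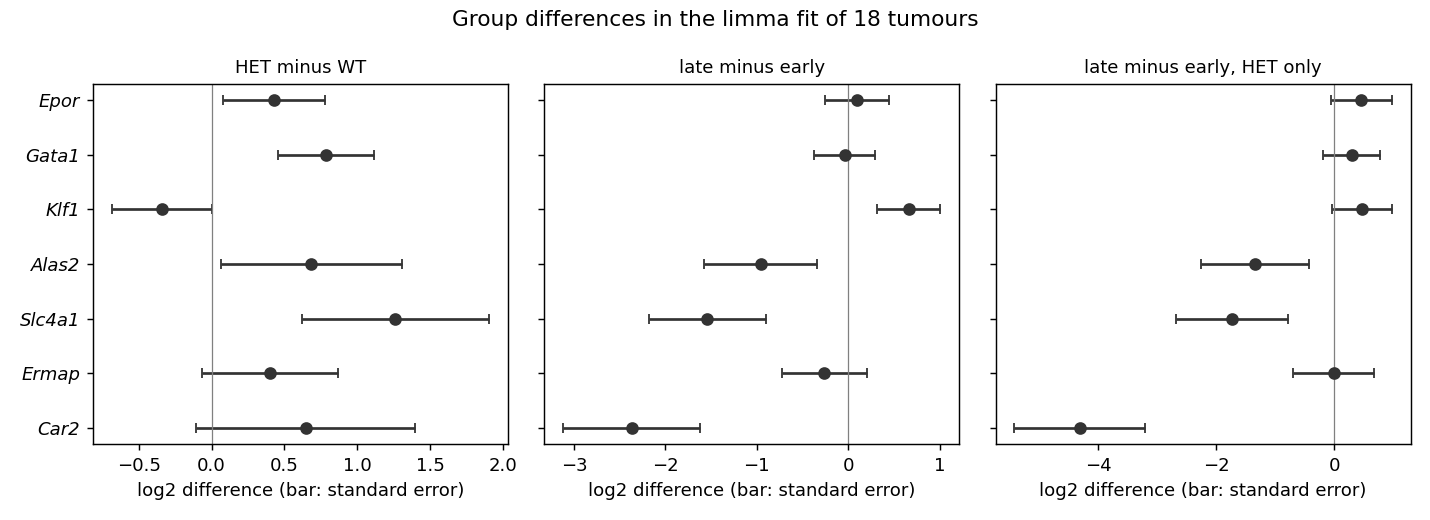
Estimated log2 differences of the 7 genes with their standard errors in the limma fit of 18 tumours, for HET minus WT, late minus early, and late minus early within HET, each panel on its own scale. Car2 lies farthest from 0 in both onset panels, at -2.37 and -4.32, and no difference passed after adjustment.

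The other cell types that make Car2 or differ between these tumours were set beside it. The summed level of 8 osteoclast markers, Car2 left out, was 166820 in HET_early_2, but 731.9 in HET_early_1 and 697.1 in HET_early_4, both with high Car2, against 1293 to 2803 in HET late tumours. In HET_early_1 and HET_early_4 the osteoclast genes Calcr (0 reads in both), Ocstamp (0.93 and 0.84) and Dcstamp (3.72 and 0) had few or no reads, whereas Mmp9, at 158.3 and 96.0, lay above HET_early_3 (43.3) and the HET late tumours (6.97 to 39.3). Neutrophil and myeloid precursor markers summed to 3878, 2625, 1024 and 2253 in HET_early_1 to HET_early_4, and to 169.0, 841.1, 1753 and 132.5 in HET late tumours. The sum of HET_early_2 came mostly from S100a8 (902.6) and S100a9 (1358), and in that tumour 9 of the 13 markers were below the median of the others, 3 of them at 0 reads, with a median difference of -2.04. All 13 of these markers had a negative difference for onset within HET (median -2.01, all genes -0.12), with 0 of 13 passing. HET_early_3, the HET early tumour with low Car2, also had the lowest such sum of its group, though HET_late_3 exceeded it at low Car2. The WT tumours went both ways. WT_late_4 had a sum of 2928 with Car2 at 15.7, and WT_early_2 had 300.5 with 127.2. By contrast, WT_early_6 had 3220 with 90.0 and WT_late_1 had 2274 with 158.6. Their part in the Car2 levels was not tested.

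**Figure D5:**
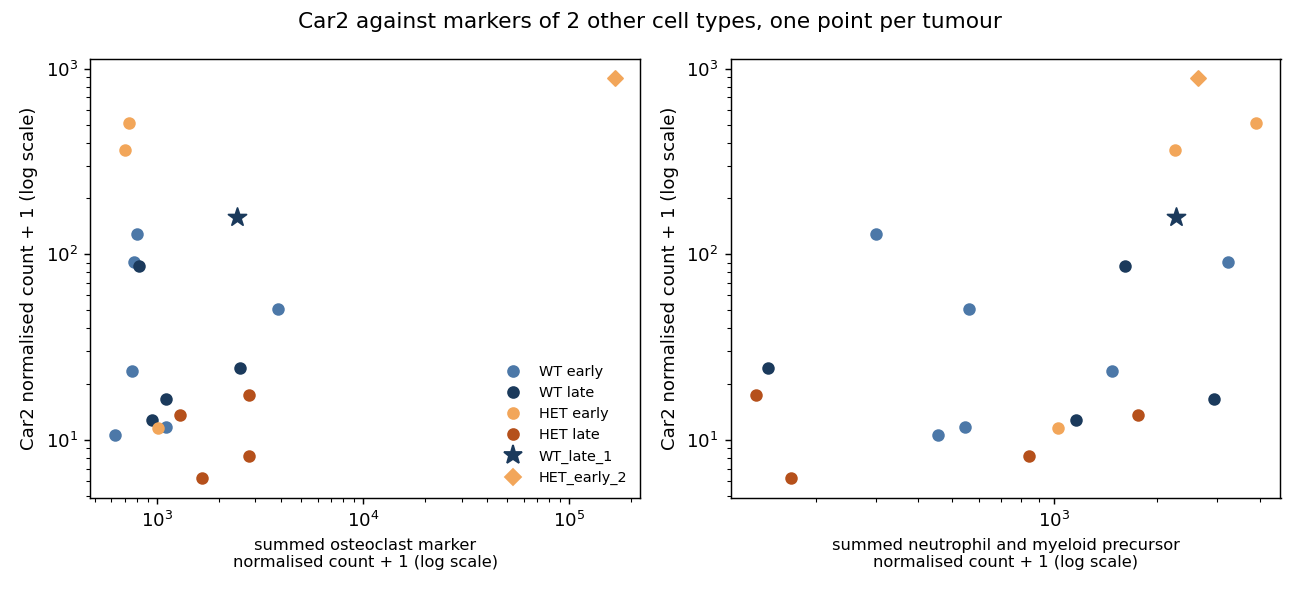
Car2 against the summed osteoclast markers without Car2 (left) and the summed neutrophil and myeloid precursor markers (right), as normalised count plus 1 on log axes, 1 point per tumour. HET_early_1 (509.4) and HET_early_4 (364.5) have high Car2 at the low end of the osteoclast axis, whereas HET_early_2 (884.0) stands alone at its upper end.

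For the remaining genes the authors' deposited table holds no call. Between genotypes its adjusted p ran from 0.252 (Car2, log2 fold change 2.04) to 0.813 (Ermap), with none given for Gata1. Between HET and WT early tumours it gives Car2 3.08 with an adjusted p of 0.0503. For Slc4a1 it gives 2.87 for late against early WT tumours and -4.49 for HET against WT late tumours, with no adjusted p. Both comparisons use the same 5 WT late tumours, in which Slc4a1 averaged 42.3 ± 93.9 (SD, n = 5) and, without WT_late_1, 0.30 ± 0.60 (SD, n = 4).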

How the data were processed

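Polyadenylated RNA of 19 lymphomas was sequenced on a Genome Analyzer IIx, per the labels' protocols, with 10 or 8 amplification cycles by protocol version. No label gives a library's version, so values within a version could not be had. The tools named in the submitters' processing notes are TopHat2 2.1.1, Cufflinks 2.2.1 with Cuffnorm and Cuffdiff, and FastQC 0.11.5, with builds GRCm38 and mm10. The maker of the table, its annotation and its strand setting are not given in the sources used here. Per the deposited table, the authors gave a normalised signal, gene counts divided by 1 factor per library, of which 100% were whole reads within 0.01 reads once the factor was undone. The authors also deposited log2 fold changes and adjusted p-values, by an unnamed tool, and these are copied and named as theirs.

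The main test was limma 3.58.1 in R 4.3.3, with trend and empirical Bayes, on log2(value + 1), a scale that understates changes of low genes, keeping genes of at least 1 in at least 4 libraries, with 4 group means and an adjusted p threshold of 0.05. WT_late_1 was left out because its values chose the genes. Correlations used permutation with 100000 resamples, exact for 8 tumours. edgeR 4.0.16 and DESeq2 1.42.0 were run on the recovered reads. The fit was tested on simulated data. The 7 genes, the gene lists and the motifs were chosen with earlier results of these data known. The relation to globins and onset within HET were added after the values were seen. Named list genes are among those with the largest (up to 4) or smallest (up to 2) difference of WT_late_1 in their list, and genes among the 10 closest to the mean z score are named by each measure. Some genes that these rules select are not reported here. Genes named beyond that (Hbb-bs, Siglecf, marker genes, Apex2, the nearest genes of single members) were chosen after their values were seen. Each library is a separate tumour and replicate numbers only name libraries in accession order. Coordinates are from GENCODE M21 (GRCm38) and promoters from RefSeq (GRCm38.p6).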

Additional observations from a re-analysis of the deposited data

Results flagged for a closer look

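In 28 combinations of a gene and a group, 4 values lay apart from the rest of their group by more than Dixon's 95% limit. That limit is meant for normally distributed values. These counts are skewed and some are 0, so the number flagged cannot be set against a chance rate. Alas2 was 450.6 in HET_early_2, with 40.0 as the next value of that group. Slc4a1 was 210.2 in WT_late_1 with 1.20 as the next, and 27.6 in WT_early_5 with 4.48 as the next. Gata1 was 8.30 in WT_late_1, where the other 4 WT late tumours were at 0. The WT_late_1 values were among those that chose the genes.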

How the results depend on the processing

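The number of genes called for genotype was 370 by DESeq2 and 0 to 17 when each tumour was left out, the most without HET_late_3. For onset it was 87 with all 19 tumours, 15 with a pseudocount of 0.1, 13 by edgeR, 1372 by DESeq2 and 0 to 233 with 1 tumour left out, again the most without HET_late_3. For onset within HET, 52 genes in the main setting became 0 with all 19 tumours, 23 by edgeR, 1780 by DESeq2 and 0 to 495 with 1 tumour left out (0 without HET_early_1 or HET_late_2, 495 without HET_late_3). The cause was not tested. The number of related pairs among the 7 genes was 0 in every setting run, within each genotype too. Of 505 values of single genes under alternatives, 484 kept their direction and side of the threshold, and 16 changed sign, from main values between -0.26 and 0.10. For onset, Gata1 was 0.28 and Ermap 0.034 with all 19 tumours, and leaving out 1 tumour gave Gata1 -0.18 to 0.15, Epor -0.066 to 0.33 and Ermap -0.56 to 0.018. Within HET, Ermap was 0.005 with a pseudocount of 0.1 and -0.37 to 0.30 with 1 tumour left out. Alas2 against the globins kept r between 0.86 and 0.98 with 1 tumour left out. No paired analysis was possible because the replicate numbers only follow accession order. Depth limits Gata1 and Klf1, at no more than 13 reads in any library.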
